A study of Mus musculus with 9 samples.

Results

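Rab GTPases are small GTP-binding proteins that mark the membranes of the secretory and endocytic routes. The genes described here are all rows of the deposited mouse expression table whose symbol is Rab followed by a number and at most 1 letter. There are 57 such genes among 22178. Expression was measured by RNA-seq of polyA RNA in 9 libraries of mouse B cells on a C57BL/6 (backcrossed) background, 3 libraries in each of 3 groups. The B2 cells, conventional B cells, were splenic and of the strain VH12B1-8/Vk4. B1 cells, the innate-like B cells of body cavities, and B2B1 cells came from the peritoneal cavity of the strain B1-8VH12/Vk4. In the B2B1 cells (B2toB1) the B cell receptor was switched about 30 days before isolation. All 9 libraries carry the Vk4 label. Tissue, strain and cell type change together between B2 and the other 2 groups and cannot be told apart, whereas B2B1 and B1 cells share tissue and strain. Neither the age of the mice nor whether each library had its own mouse is labelled. By the sex-linked transcripts given below, B2 and B2B1 each held libraries of both sexes, and so of more than 1 mouse. This cannot be told for B1, and the spread behind the p-values, taken between these libraries, may still be partly technical.

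A Rab protein switches between an inactive GDP-bound and an active GTP-bound form. Guanine nucleotide exchange factors (GEFs) load it with GTP, GTPase-activating proteins (GAPs) make it hydrolyse that GTP, and in its active form it recruits effectors such as tethers, motors and lipid kinases. Rab proteins hold to membranes by geranylgeranyl lipids, which Rab geranylgeranyl transferase attaches, and the GDP dissociation inhibitors take the inactive proteins back into the cytosol. In B cells these routes carry the B cell receptor and its antigen to the endosomes where MHC class II is loaded, return receptors to the surface and export immunoglobulin.

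Values are the authors' TPM estimates for each gene (transcripts relative to all transcripts of a library), which are per length, so that levels can be set beside each other between genes. The read depth is unknown. The listed genes of a library summed to 894515 to 943043 TPM, and 10711 to 10945 genes reached 1 TPM. In a principal component analysis the first component held 70.3% of the variance and set B2 apart from both peritoneal groups. The second, with 13.3%, set B2B1 (-29.3 to -17.7) apart from B1 (19.6 to 30.0). The third, with 4.12%, set library 2 of B1 (29.4) apart from libraries 1 and 3 (-10.8 and -11.5). All 8 B cell markers were at 1 TPM or more in every group. The 10 measured macrophage markers summed to 1.63 to 3.25 TPM in B2, 66.9 to 259 TPM in B2B1 and 21.6 to 48.4 TPM in B1, with the highest sum in library 1 of B2B1. Of these, Lyz2 reached 181 TPM there and Emr1 was at 39.9 to 52.0 TPM in B2B1 and 13.6 to 20.9 TPM in B1, while Fcgr1 stayed at or below 0.163 TPM in every library. Plasma cell markers summed to 171 to 187 TPM in B2, 256 to 307 TPM in B2B1 and 221 to 270 TPM in B1. Among them Irf4 was at 71.1 to 73.2 TPM in B2, 140 to 164 TPM in B2B1 and 99.8 to 127 TPM in B1. Prdm1 was at most 0.764 TPM in B2 and at 6.50 to 24.0 TPM in the peritoneal libraries. Igj and Slamf7 did not exceed their highest B2 values of 7.64 and 15.3 TPM there. Markers of NK cells summed to 12.3 to 18.5 TPM in B2, mostly Prf1 (11.3 to 16.3 TPM), and at most 1.68 TPM in the peritoneal groups. Those of dendritic cells summed to 18.3 to 20.2 TPM in B2, mostly Flt3 (14.1 to 16.2 TPM), and at most 2.45 TPM. Those of platelets and megakaryocytes, mostly Itgb3 in B2, summed to 31.1 to 36.5 and at most 7.60 TPM. Ncr1, Klrb1c and Gzma of the NK list reached at most 0.150 TPM, and Siglech and Clec9a of the dendritic list at most 0.0920 TPM, in any library. T cell markers summed to 9.45 to 12.6 TPM in B2, 6.67 to 9.90 TPM in B2B1 and 17.4 to 19.8 TPM in B1. The B1 sum was mostly Cd3d and Cd3g, while Cd3e reached at most 0.0837 TPM in any library. Xist was at 180 to 298 TPM in libraries 1 and 3 of B2, library 3 of B2B1 and all of B1, and at 0.355 to 0.461 TPM in the other 3 libraries, where the Y-linked Ddx3y was at 56.9 to 75.3 TPM, so that the sex of the mice was not even between B2B1 and B1. In bulk RNA, fewer cells of a type and less RNA per cell cannot be told apart.

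The Rab genes together took a small share of the transcripts. They summed to 1996, 1975 and 1929 TPM in the 3 B2 libraries, 2109, 2071 and 2157 TPM in B2B1 and 2183, 2071 and 2127 TPM in B1, so every peritoneal library lay above every B2 library. As a share of the listed TPM this was 0.207% to 0.216% in B2, 0.221% to 0.230% in B2B1 and 0.221% to 0.238% in B1. The 10 most abundant members held 60.1% of the Rab TPM in B2, 57.6% in B2B1 and 57.1% in B1. Of the 57 genes, 40 had a mean of at least 1 TPM over the 9 libraries and entered the tests, 32 had at least 10 TPM and 16 at least 50 TPM. Only Rab38 was listed at 0 in every library. The median coefficient of variation of the 40 tested genes between libraries of a group was 6.81% in B2, 7.37% in B2B1 and 8.34% in B1.

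The 40 genes were compared between groups on the log2(TPM + 1) scale in one limma model of all 11099 genes with a mean of at least 1 TPM, with Benjamini-Hochberg adjustment over all of them. Calls were made where the adjusted p was under 0.05. Against B2, 13 of 40 Rab genes were higher and 5 lower in B1, beside 51.9% of all tested genes called either way, 18.0% higher and 33.9% lower. In B2B1 16 were higher and 10 lower than in B2, beside 63.0% of all genes called, 21.0% higher and 42.0% lower. Both comparisons use the same B2 libraries. Between B2B1 and B1, 1 Rab gene was higher in B2B1 and 3 were lower, beside 19.0% of all genes called, 6.93% higher and 12.1% lower. An absolute log2 fold change of at least 1 together with a call was seen for 2 higher and 1 lower Rab genes in B1 against B2 (13.3% of all genes), 2 and 1 in B2B1 against B2 (17.3%) and 0 and 1 in B2B1 against B1 (3.72%). The share of Rab genes called was thus near the background for the first pair of comparisons, at 45% and 65%, and was 10% for the third. The median log2 fold change of the Rab genes was 0.10 for B1 against B2, where that of all genes was -0.14, and 0.08 for B2B1 against B2, where that of all genes was -0.19. Their median absolute log2 fold change on the deposited scale was 0.18 and 0.29, against 0.33 and 0.43 for all genes. Rescaling of TPM by median-of-ratios factors brought the median of all genes to 0.01 and 0.02. Then 19 Rab genes were higher and 4 lower in B1, and 22 were higher and 4 lower in B2B1. Of all 11099 genes, 2843 were then higher and 2464 lower in B1, and 3494 and 3031 in B2B1. The median absolute change on that scale was 0.31 and 0.42 for the Rab genes, against 0.30 and 0.38 for all genes. With quantile normalization it was 0.26 and 0.35, against 0.30 and 0.38. Groups did not overlap for 24 of 40 genes between B1 and B2 (61.7% of all genes), for 28 between B2B1 and B2 (72.2%) and for 13 between B2B1 and B1 (35.7%).

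The genes called higher in B1 than in B2 were Rab1b, Rab3b, Rab5c, Rab7, Rab9, Rab10, Rab11a, Rab18, Rab19, Rab20, Rab28, Rab30 and Rab31, and those called lower were Rab8a, Rab12, Rab21, Rab33b and Rab37. In B2B1 the higher genes were Rab1b, Rab3b, Rab5a, Rab5b, Rab5c, Rab6a, Rab7, Rab9, Rab10, Rab11a, Rab18, Rab19, Rab28, Rab30, Rab31 and Rab43, and the lower ones were Rab4b, Rab8a, Rab11b, Rab12, Rab21, Rab24, Rab33b, Rab37, Rab39 and Rab40c. Because both lists rest on the same B2 libraries, genes that stand in both are not independent evidence. Of the 40 genes, 13 were called in no comparison, among them Rab14, Rab27a, Rab35 and Rab2b. The matching share over all genes was not computed. Of these 13, 6 gained a call with median-of-ratios scaling: Rab1, Rab2a, Rab3a, Rab8b, Rab22a and Rab32, each of them as higher.

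**Figure D1:**
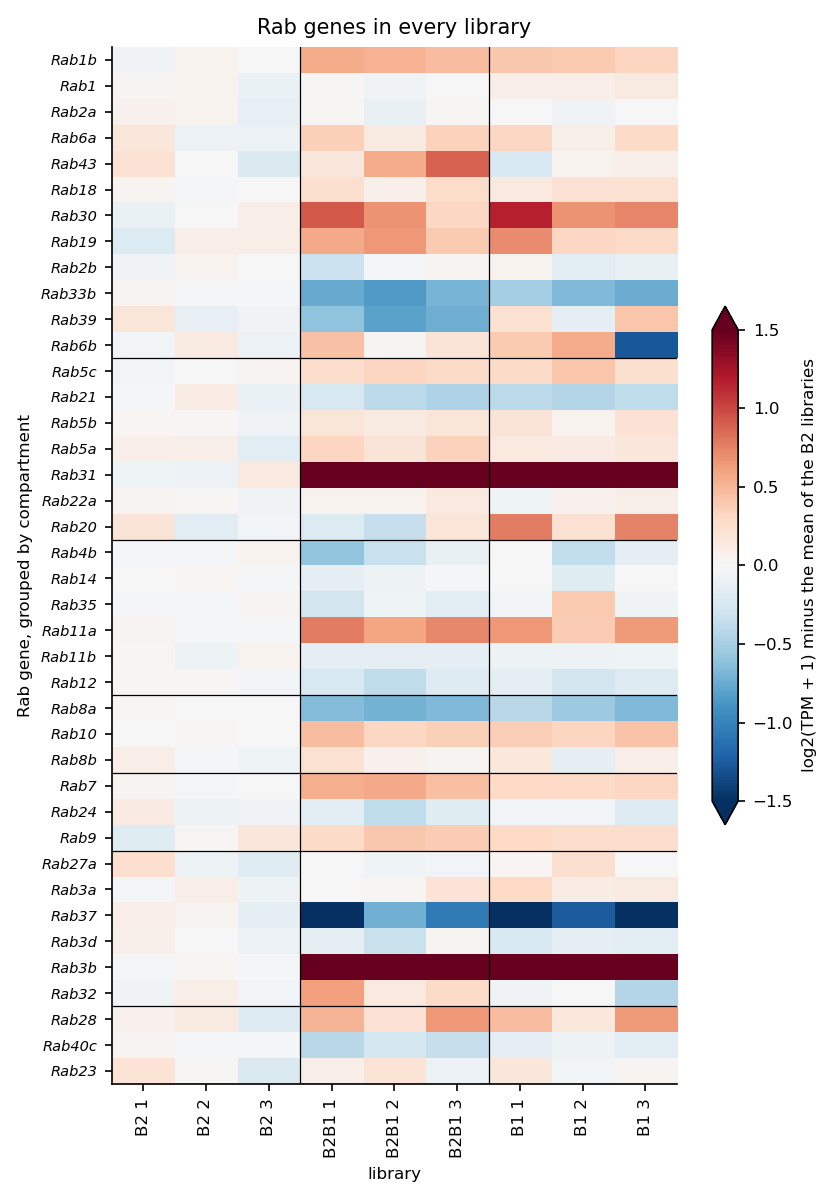
Each row is a tested Rab gene and each column a library, and the colour is log2(TPM + 1) minus the mean of the 3 B2 libraries, on a scale that ends at -1.5 and 1.5. Horizontal lines part the compartments, in the order ER and Golgi, early endosome, recycling endosome, to the plasma membrane, late endosome, secretory granule, and cilium or atypical. Rab31 and Rab3b lie beyond the upper end of the scale in all 6 peritoneal libraries, and Rab8a, Rab33b and Rab37 are below B2 in all 6.

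Promoter sequences are shown for the 3 genes whose levels carry the main contrasts and that have an entry in the RefSeq promoter table (GRCm38.p6): Rab31 and Rab3b, which were higher in the peritoneal groups, and Rab8a, the most abundant member in B2, which was lower. Each is the 250 bases before the annotated start, 5′ to 3′ on the gene's strand, with GGGCGG, the core of a GC box, in capitals on either strand. They lie at chr17:65772753-65773002 on the minus strand, chr4:108878820-108879069 on the plus strand and chr8:72160950-72161199 on the plus strand.
Rab31: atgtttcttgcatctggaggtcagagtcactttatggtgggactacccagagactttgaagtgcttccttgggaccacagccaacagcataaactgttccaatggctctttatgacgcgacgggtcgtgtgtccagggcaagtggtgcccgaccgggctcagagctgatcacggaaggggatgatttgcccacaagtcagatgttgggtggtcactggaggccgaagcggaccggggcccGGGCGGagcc
Rab3b: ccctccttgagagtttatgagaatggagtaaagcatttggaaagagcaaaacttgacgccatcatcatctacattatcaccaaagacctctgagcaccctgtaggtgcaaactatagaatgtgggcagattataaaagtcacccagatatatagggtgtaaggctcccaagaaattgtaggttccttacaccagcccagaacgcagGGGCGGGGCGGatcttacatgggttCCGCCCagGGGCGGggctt
Rab8a: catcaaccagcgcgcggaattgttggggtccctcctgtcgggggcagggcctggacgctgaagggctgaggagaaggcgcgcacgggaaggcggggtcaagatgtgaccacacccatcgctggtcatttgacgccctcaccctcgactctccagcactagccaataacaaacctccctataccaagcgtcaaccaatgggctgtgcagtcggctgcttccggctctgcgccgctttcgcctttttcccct
The Rab31 window had a GC content of 57.6% and a CpG observed-to-expected ratio of 0.593, with 1 GGGCGG. The Rab3b window was poorer in GC (48.8%, ratio 0.405), with 4 GGGCGG, of which overlapping matches were counted apart, and 1 TATAAA. The Rab8a window had 61.6% GC and a ratio of 0.764, with 0 GGGCGG. Over all 27025 promoters of the table the median GC content was 52% and the median ratio 0.378, and GGGCGG was in 32.9% and TATAAA in 13.0% of them, both strands searched. None of the 3 windows held CACGTG (the E-box, in 6.05% of all promoters), the AP-1 motif TGANTCA (6.87%) or the cAMP response element TGACGTCA (1.62%). A match of letters is a description and not a binding site.

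Early endosomes held the member that differed most among those expressed in all libraries. Rab31 (chr17:65651729-65772752, minus strand, GRCm38, GENCODE vM21), also known as Rab22b, acts between the trans-Golgi network and early endosomes. Its level was 5.73, 5.66 and 6.83 TPM in B2, 44.8, 42.6 and 68.9 TPM in B2B1 and 66.4, 58.5 and 73.8 TPM in B1. All 6 peritoneal libraries lay far above B2, and B2B1 and B1 overlapped. The ratio of means was 10.9 for B1 over B2 and 8.58 for B2B1 over B2. The estimated log2 change was 3.25 ± 0.17 (SE, n = 3 against 3, limma, adjusted p = 1.08e-06) in B1 and 2.88 ± 0.17 (limma, adjusted p = 1.84e-06) in B2B1, and both calls held under all 20 alternatives. B2B1 against B1 gave -0.37 ± 0.17 (limma, adjusted p = 0.172), which became a called -0.58 (limma, adjusted p = 0.0166) without library 3 of B2B1. Macrophage markers moved with this gene against B2, but Rab31 was higher in library 1 of B1, at a marker sum of 21.6 TPM, than in library 1 of B2B1, at 259 TPM. The part of other cells in its level was not tested. Library 3 of B2B1, which had the highest Rab31 level of its group, was also its only library with high Xist.

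The close relative of Rab31, Rab22a, which works in sorting and recycling at early endosomes, was not called, with means of 32.1 ± 1.11 (SD, n = 3), 34.1 ± 1.31 and 32.9 ± 1.89 TPM in B2, B2B1 and B1. With median-of-ratios scaling it was called higher than in B2, by 0.31 in B2B1 and 0.19 in B1 (log2 scale, limma, adjusted p = 0.00361 and 0.0444). Rab31 therefore made up 15.9% of the summed TPM of the pair in B2, 59.8% in B2B1 and 66.7% in B1. The other early endosome genes differed less. The Rab5 genes encode the regulators of early endosome fusion, and Rab5c was their most abundant member. Rab5c was at 115, 119 and 123 TPM in B2, 143, 149 and 146 TPM in B2B1 and 145, 159 and 141 TPM in B1, with no overlap between B2 and the others. Its log2 fold change was 0.32 ± 0.06 in B1 (limma, adjusted p = 0.00185) and 0.29 ± 0.06 in B2B1 (limma, adjusted p = 0.00204). Rab5a was called in B2B1 against B2 (0.29 ± 0.08, limma, adjusted p = 0.0115) and gave 0.15 ± 0.08 in B1 (limma, adjusted p = 0.15). Rab5b, at 82.6, 81.9 and 77.6 TPM in B2, 91.5, 88.5 and 91.4 TPM in B2B1 and 92.7, 83.6 and 93.8 TPM in B1, was narrowly called in B2B1 (0.16 ± 0.06, limma, adjusted p = 0.0397), and the call was lost when any 1 of the B2 or B2B1 libraries was left out (0.14 to 0.39 over all alternatives).

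Rab21, which guides integrin endocytosis, went the other way. It was at 127, 139 and 120 TPM in B2, 108, 97.6 and 92.6 TPM in B2B1 and 97.6, 94.5 and 98.01 TPM in B1. Every peritoneal library was below every B2 library. This amounted to a log2 fold change of -0.41 ± 0.07 in B1 (limma, adjusted p = 0.00177) and -0.37 ± 0.07 in B2B1 (limma, adjusted p = 0.00225), the latter -0.14 and no longer called with median-of-ratios scaling. Rab20, which acts on phagosome maturation, was at 7.28, 5.51 and 6.03 TPM in B2, 5.30, 4.71 and 7.21 TPM in B2B1 and 11.3, 7.502 and 11.1 TPM in B1, so B1 lay above the other 2 groups. It was called in B1 against B2 (0.58 ± 0.19, limma, adjusted p = 0.028) and lower in B2B1 than in B1 (-0.70 ± 0.19, limma, adjusted p = 0.0322). The first call was lost without library 1 or 3 of B1 or library 2 or 3 of B2 and the second without library 1 or 3 of B1, library 3 of B2 or library 1 or 2 of B2B1. Rab20 shares 25.6% of its exonic bases with an antisense-strand transcript, and strand is not stated for the counting. Over the 7 early endosome genes, all tested, 3 were higher and 1 lower in B1 against B2, and 4 were higher and 1 lower in B2B1. The shares called were 57.1% and 71.4%, beside 51.9% and 63.0% of all genes. The TPM of the 7 genes summed to 420 ± 13.8 (SD, n = 3) in B2, 485 ± 15.9 in B2B1 and 496 ± 8.57 in B1. Much of this difference was Rab31, with means of 6.07 TPM in B2, 52.1 TPM in B2B1 and 66.3 TPM in B1.

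**Figure D2:**
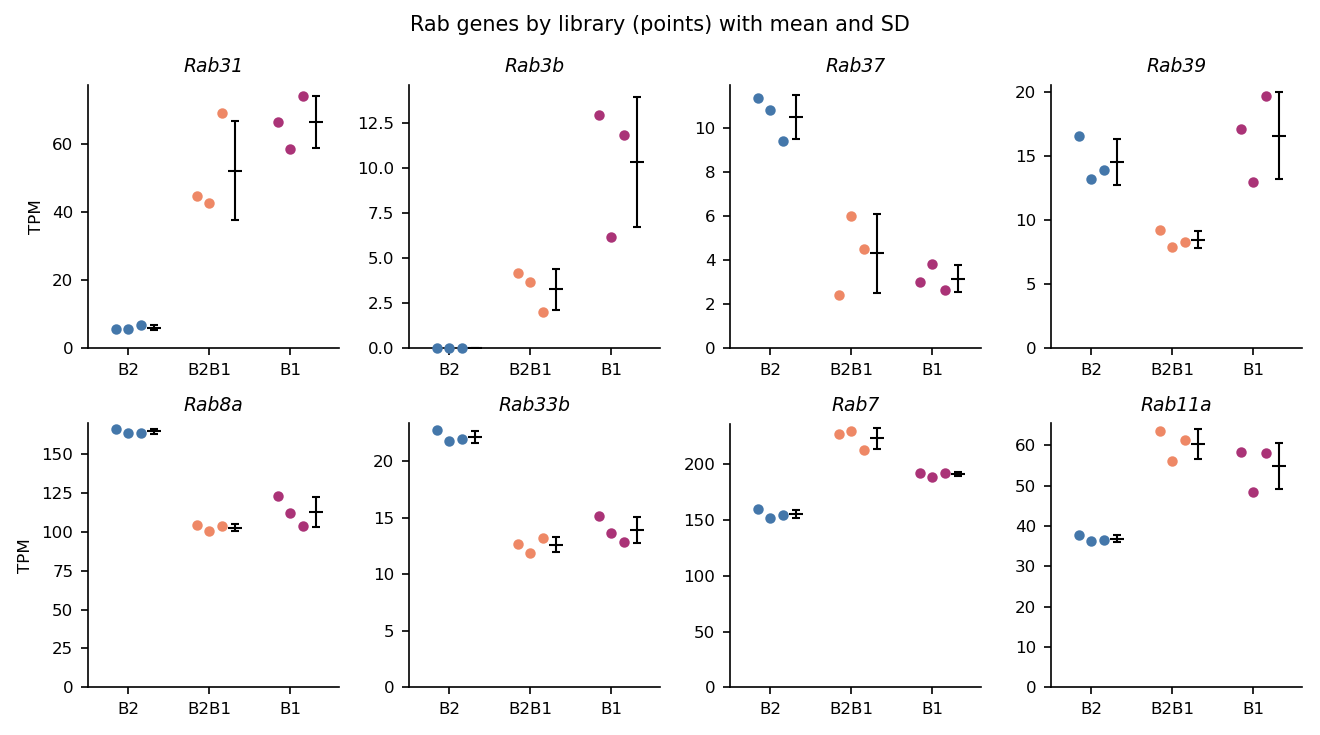
Each panel shows 1 Rab gene, with the TPM of each library as a point, the 3 groups along the horizontal axis, the group mean with SD bars beside the points, and each vertical axis from 0. Rab31 runs from 5.66 to 6.83 TPM in B2 and from 42.6 to 73.8 TPM in the peritoneal groups, Rab39 is lower in B2B1 than in both other groups, and Rab8a and Rab33b are lower in both peritoneal groups.

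The ER and Golgi list was the largest, with 16 members, of which 12 were tested. In B1 4 of them were higher and 1 lower than in B2, and in B2B1 6 were higher and 2 lower. The shares called were 41.7% and 66.7%, beside 51.9% and 63.0% of all genes. Of all genes 18.0% were higher and 33.9% lower in B1, and 21.0% and 42.0% in B2B1. The TPM of the 16 members summed to 454 ± 15.2 (SD, n = 3) in B2, 535 ± 11.2 in B2B1 and 519 ± 17.6 in B1. Rab1b, which controls transport from the ER to the Golgi, was at 92.9, 99.8 and 97.0 TPM in B2, 143, 139 and 134 TPM in B2B1 and 128, 127 and 121 TPM in B1. The 3 groups did not overlap. Its log2 fold change against B2 was 0.37 ± 0.05 in B1 (limma, adjusted p = 0.000425) and 0.52 ± 0.05 in B2B1 (limma, adjusted p = 3.97e-05). B2B1 against B1 was not called (0.15 ± 0.05, limma, adjusted p = 0.0891), though it was with median-of-ratios scaling (0.22, limma, adjusted p = 0.028). The table also lists Rab1, a symbol that RefSeq gives as a synonym of both Rab1a and the unrelated Rnase4. It was taken here as Rab1a because Rnase4 has a row of its own, but this could not be checked further. Its means were 69.0 ± 3.96, 68.5 ± 1.70 and 74.7 ± 0.966 TPM and it was not called. If it is Rab1a, Rab1b made up 58.3% of the pair in B2, 66.9% in B2B1 and 62.6% in B1.

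Rab30, a Golgi Rab, was higher in both peritoneal groups, with 20.4, 22.0 and 23.5 TPM in B2, 42.4, 35.7 and 27.4 TPM in B2B1 and 50.2, 35.4 and 36.9 TPM in B1. The peritoneal libraries spread widely but all lay above B2. In limma its log2 fold change was 0.85 ± 0.17 in B1 (limma, adjusted p = 0.0028) and 0.64 ± 0.17 in B2B1 (limma, adjusted p = 0.0098). Rab19 was higher by 0.44 ± 0.14 in B1 (limma, adjusted p = 0.0257), a call lost without library 1 of B1 or of B2, and by 0.54 ± 0.14 in B2B1 (limma, adjusted p = 0.00774). Rab18, which acts at the ER and on lipid droplets, was 0.20 higher in each on the log2 scale. Both calls were lost on leaving out any 1 of the B2 libraries, the one in B1 also without library 2 or 3 of B1 and the one in B2B1 also without library 1 or 3 of B2B1. Rab43 and Rab6a, which act in Golgi transport, were called higher in B2B1 (0.54 ± 0.18 and 0.28 ± 0.10, limma, adjusted p = 0.0285 and 0.033) and not in B1 (-0.03 ± 0.18 and 0.22 ± 0.10, limma, adjusted p = 0.886 and 0.086). The Rab43 call was lost without library 2 or 3 of B2 or of B2B1, and the Rab6a call without library 2 or 3 of B2 or library 1 or 3 of B2B1. Rab43 shares 75.4% of its exonic bases with a same-strand gene model, so that its reads may have been split. Rab6a shares 19.0% of its exonic bases with Mrpl48 on the opposite strand, which was at 41.2 to 62.7 TPM.

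Rab33b, a Golgi Rab that takes part in autophagosome formation, was lower, with 22.8, 21.8 and 21.9 TPM in B2, 12.7, 11.9 and 13.2 TPM in B2B1 and 15.1, 13.7 and 12.9 TPM in B1. No peritoneal library reached a B2 library. The log2 fold change was -0.64 ± 0.08 in B1 (limma, adjusted p = 0.000205) and -0.77 ± 0.08 in B2B1 (limma, adjusted p = 4.62e-05). Rab39 (chr9:53684110-53706232, minus strand), which is known from human cells as RAB39A and acts on phagosomes and autophagy, separated B2B1 from both other groups. It was at 16.6, 13.2 and 13.9 TPM in B2, 9.20, 7.91 and 8.33 TPM in B2B1 and 17.1, 13.0 and 19.7 TPM in B1. B2 and B1 overlapped, and each B2B1 library lay below both. The log2 fold change of B2B1 was -0.71 ± 0.15 against B2 (limma, adjusted p = 0.00259) and -0.88 ± 0.15 against B1 (limma, adjusted p = 0.00456), and B1 against B2 gave 0.17 ± 0.15 (limma, adjusted p = 0.369). Both calls held under all 20 alternatives. Its relative Rab39b, under the filter at 0.341 to 0.614 TPM in B2 and 0.364 to 0.865 TPM in B1, was at 1.21 to 2.14 TPM in B2B1. In a fit without the filter Rab39b was higher in B2B1 by 0.86 ± 0.16 against B2 (limma, adjusted p = 0.00289) and by 0.77 ± 0.16 against B1 (limma, adjusted p = 0.0216). Rab39b thus made up 3.37% of the summed pair in B2, 17.0% in B2B1 and 3.505% in B1. Rab6b was not called, and library 3 of B1 stood apart, at 1.41 TPM against 6.65 and 7.57 TPM in the other B1 libraries.

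Of the late endosome and lysosome list, Rab7 (chr6:87999106-88045270, minus strand) controls maturation of late endosomes and their fusion with lysosomes. It was at 159, 152 and 154 TPM in B2, 227, 230 and 212 TPM in B2B1 and 192, 189 and 192 TPM in B1. The 3 groups formed separate steps, B2 lowest and B2B1 highest. Macrophage markers were also highest in B2B1, though within it the library with the highest Rab7 level, library 2, had the lowest marker sum, 66.9 TPM, and their part in the difference was not tested. The estimated log2 change was 0.30 ± 0.05 in B1 (limma, adjusted p = 0.00107) and 0.52 ± 0.05 in B2B1 against B2 (limma, adjusted p = 2.73e-05). Of the Rab genes that passed the filter, Rab7 was the only one called higher in B2B1 than in B1 (0.22 ± 0.05, limma, adjusted p = 0.0171). This call was lost without library 1 (0.21) or library 2 (0.20) of B2B1. It was also lost when only the groups compared were fitted, and without both library 1 of B2B1 and library 2 of B1. Rab9, which returns mannose 6-phosphate receptors from late endosomes to the Golgi, was higher by 0.28 ± 0.09 in B1 (limma, adjusted p = 0.0287) and 0.36 ± 0.09 in B2B1 (limma, adjusted p = 0.00722), the first lost without library 1 or 3 of B1 or library 1 or 2 of B2. Rab24, an autophagy-associated Rab, was lower in B2B1 (-0.24 ± 0.09, limma, adjusted p = 0.0358), -0.01 and not called with median-of-ratios scaling, and the call was lost without library 1 or 3 of B2 or library 2 of B2B1. Rab24 shares 62.4% of its exonic bases with Prelid1 on the opposite strand, which was at 192 to 354 TPM. The list's 4 members summed to 254 ± 8.12, 315 ± 7.19 and 289 ± 3.605 TPM (SD, n = 3) in B2, B2B1 and B1, and Rab7 held most of each sum.

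Of the recycling endosome genes 6 were tested, and against B2 1 was higher and 3 lower in B2B1, and 1 higher and 1 lower in B1. The shares called were 66.7% in B2B1 and 33.3% in B1, beside 63.0% and 51.9% of all genes. The 10 members of the list summed to 458 ± 5.76 (SD, n = 3), 424 ± 26.5 and 455 ± 18.0 TPM in B2, B2B1 and B1. The one that was higher, Rab11a, is the main Rab of slow recycling. It was at 37.8, 36.2 and 36.5 TPM in B2, 63.5, 56.2 and 61.3 TPM in B2B1 and 58.4, 48.4 and 58.1 TPM in B1. Each peritoneal library lay above each B2 library. This amounted to a log2 fold change of 0.56 ± 0.08 in B1 (limma, adjusted p = 0.000551) and 0.69 ± 0.08 in B2B1 (limma, adjusted p = 0.000105). Its close relative Rab11b had means of 46.8 ± 2.26, 42.2 ± 0.277 and 44.4 ± 0.231 TPM in B2, B2B1 and B1, so that Rab11a was 44.1% of the pair in B2, 58.8% in B2B1 and 55.2% in B1. Rab11b was called lower in B2B1 (-0.14 ± 0.06, limma, adjusted p = 0.0483), a call lost on leaving out library 1 or 3 of B2, library 1 or 3 of B1 or any 1 of the B2B1 libraries, and its sign turned with median-of-ratios scaling (0.08) and quantile normalization (0.05).

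Rab4b, of fast recycling, was at 160, 159 and 168 TPM in B2, 108, 128 and 150 TPM in B2B1 and 162, 125 and 147 TPM in B1. The B2B1 libraries lay below B2 but spread widely, and B1 overlapped both. The call in B2B1 (-0.34 ± 0.13, limma, adjusted p = 0.0381) was lost when any 1 of the B2 libraries, library 1 or 2 of B2B1 or library 3 of B1 was left out and under both other scalings. Rab4b made up 99.2% to 99.6% of the group means of the Rab4 pair, and 65.0% of its exonic bases are shared with a same-strand gene model. Another 1 on that strand, the microRNA gene Mir3101, shares 4.47% of them and was listed at 148 to 275 TPM. Rab12, which directs the transferrin receptor to lysosomes, was lower by 0.20 in B1 (log2 fold change -0.20 ± 0.08, limma, adjusted p = 0.0493), a call lost without any 1 of the B2 libraries, library 2 or 3 of B1 or library 1 or 3 of B2B1, and -0.27 ± 0.08 in B2B1 (limma, adjusted p = 0.0112). Neither Rab12 call held under the other scalings. Rab14, of the route between Golgi and endosomes, was at 107, 110 and 105 TPM in B2, 97.8, 102 and 105 TPM in B2B1 and 108, 94.6 and 107 TPM in B1, and was not called. B1 overlapped both other groups, while the B2B1 libraries lay just below the B2 libraries. Rab35, which recycles cargo to the surface, was at 78.6, 78.5 and 81.6 TPM in B2, 65.8, 76.1 and 71.3 TPM in B2B1 and 77.6, 104 and 76.7 TPM in B1. Its high value came from library 2 of B1, the library that stood apart, and it was not called.

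Of the genes for transport to the plasma membrane, Rab8a and Rab10 encode close relatives that act on exocytic vesicles, and they moved in opposite directions. Rab8a (chr8:72161200-72183904, plus strand) was at 166, 164 and 163 TPM in B2, 104, 100.1 and 103 TPM in B2B1 and 123, 112 and 104 TPM in B1. It was the first of all Rab genes in B2, and no peritoneal library came near the B2 level. In limma its log2 fold change was -0.54 ± 0.06 in B1 (limma, adjusted p = 0.000139) and -0.67 ± 0.06 in B2B1 (limma, adjusted p = 2.6e-05), and both calls held under all 20 alternatives. Rab10 was at 88.3, 89.8 and 88.4 TPM in B2, 123, 110 and 114 TPM in B2B1 and 115, 112 and 119 TPM in B1. Both peritoneal groups lay above B2 and overlapped each other. The log2 fold change was 0.37 ± 0.06 in each comparison with B2 (limma, adjusted p = 0.00057 in B1 and 0.000382 in B2B1). Rab8b was called higher in B2B1 with median-of-ratios scaling (0.33, limma, adjusted p = 0.0134) but not on the deposited scale, with means of 36.8 ± 2.27, 39.9 ± 2.96 and 37.9 ± 4.02 TPM, and made up 18.3%, 28.0% and 25.2% of the Rab8 pair in B2, B2B1 and B1. Rab13, a Rab of epithelial junctions, had a listed value of 0 in all B2 libraries and of 0.548 to 1.43 TPM in the peritoneal libraries. It was under the filter, and without the filter its log2 fold change was 0.73 ± 0.15 in B1 (limma, adjusted p = 0.00553) and 0.89 ± 0.15 in B2B1 (limma, adjusted p = 0.0015). The 4 genes summed to 290.05 ± 3.46, 259 ± 11.3 and 267 ± 10.9 TPM (SD, n = 3) in B2, B2B1 and B1. Of the 4, only Rab8a had lower means in the peritoneal groups than in B2.

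**Figure D3:**
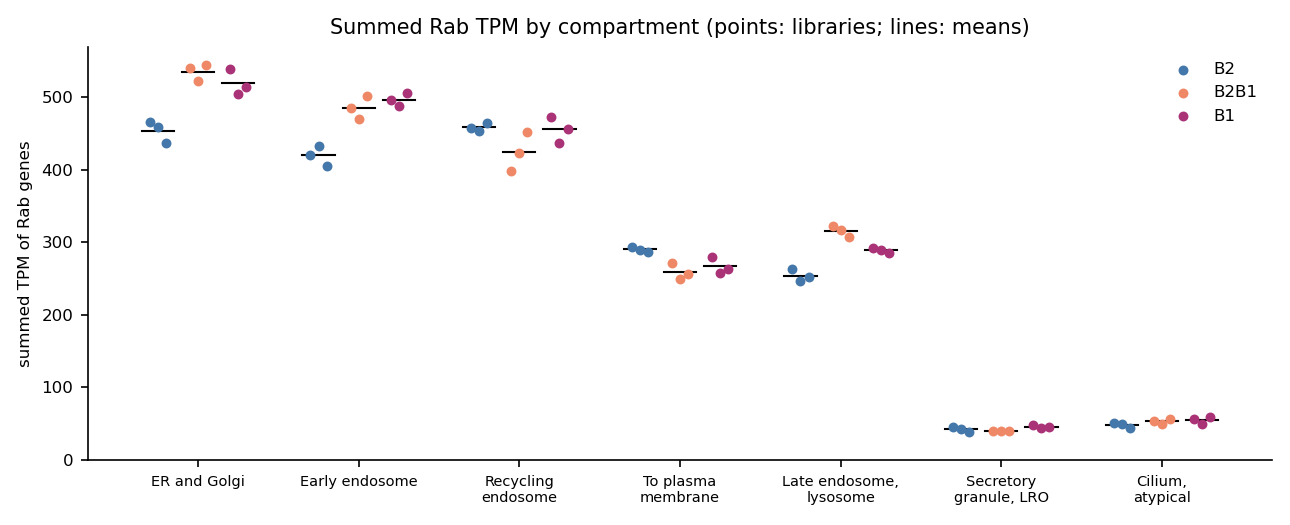
Each point is the TPM of 1 library summed over all Rab genes of a compartment, with the 7 compartments along the horizontal axis, the vertical axis from 0, and lines at the group means. LRO is lysosome-related organelle. The ER and Golgi, early endosome and late endosome sums are higher in every peritoneal library than in every B2 library, and the sums for transport to the plasma membrane are lower. Rab31 weighs heavily in the early endosome difference and Rab7 in the late endosome sum. Of the genes for transport to the plasma membrane, only Rab8a had lower means than in B2. The sums therefore do not show a shift of a whole compartment.

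Genes of secretory granules and lysosome-related organelles were low in these cells, and their 10 members summed to 42.5 ± 3.75 (SD, n = 3), 40.0 ± 0.624 and 45.7 ± 2.27 TPM in B2, B2B1 and B1. Rab3b and Rab37 changed under this near-level sum. Rab3b (chr4:108879063-108943324, plus strand) encodes a Rab3 protein of regulated exocytosis, known mostly from neurons and endocrine cells. It was listed at 0, 0.0332 and 0 TPM in B2, 4.15, 3.68 and 1.997 TPM in B2B1 and 12.9, 6.20 and 11.9 TPM in B1. The 3 groups did not overlap, and the gene passed the filter only through the peritoneal groups. The estimated log2 change was 3.43 ± 0.28 in B1 (limma, adjusted p = 1.29e-05) and 2.04 ± 0.28 in B2B1 (limma, adjusted p = 0.000207), values that depend on the pseudocount because of the B2 zeros and ran from 3.25 to 6.50 and from 1.89 to 4.88 over the alternatives. The mean in B1 was 3.15 times that in B2B1, with a log2 fold change of -1.39 ± 0.28 for B2B1 against B1 (limma, adjusted p = 0.00975), a call that held under each alternative that kept the gene. Rab3a and Rab3d were not called, with means in B2 of 8.88 ± 0.628 TPM for Rab3a and 5.49 ± 0.362 TPM for Rab3d. Rab3b made up 0.0680% of the Rab3 family in B2, 17.8% in B2B1 and 38.9% in B1.

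Rab37 (chr11:115091431-115162236, plus strand) takes part in secretory granule release in mast cells and other secretory cells. It was at 11.3, 10.8 and 9.40 TPM in B2, 2.44, 6.00 and 4.51 TPM in B2B1 and 2.99, 3.83 and 2.63 TPM in B1. Every peritoneal library was below every B2 library, and B2B1 spread the most. This amounted to a log2 fold change of -1.48 ± 0.24 in B1 (limma, adjusted p = 0.000814) and -1.17 ± 0.24 in B2B1 (limma, adjusted p = 0.00224). Both calls held under all 20 alternatives. Rab27a, the Rab of lytic granules, had means of 12.4 ± 2.18, 12.0 ± 0.284 and 13.2 ± 1.28 TPM in B2, B2B1 and B1 and was not called. Rab32, of lysosome-related organelles, was highest in library 1 of B2B1 (5.37 TPM), the library with the most macrophage marker transcripts, and was not called (B2B1 against B1 0.51 ± 0.16, limma, adjusted p = 0.0606).

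In the last list, Rab28, a Rab of cilia, had means of 22.5 ± 2.64, 31.5 ± 4.83 and 30.6 ± 5.19 TPM (SD, n = 3) in B2, B2B1 and B1, with log2 fold changes of 0.42 ± 0.15 in B1 (limma, adjusted p = 0.0447) and 0.46 ± 0.15 in B2B1 (limma, adjusted p = 0.0251). The call in B1 was lost without any 1 of the B2 libraries, library 1 or 3 of B1 or library 1 of B2B1, and the call in B2B1 without library 3 of B2 or library 1 or 3 of B2B1. Rab40c, whose protein carries a SOCS box and joins a ubiquitin ligase, was lower in B2B1 (-0.34 ± 0.07, limma, adjusted p = 0.00232), a call lost under both other scalings. Rab23, a regulator of Hedgehog signalling, was not called, with means of 4.49 ± 0.816, 4.76 ± 0.575 and 4.68 ± 0.415 TPM.

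The 17 genes under the filter include members known for epithelial, neuronal or platelet functions. None of them exceeded 2.14 TPM in any library, and besides Rab13 and Rab39b the fit without the filter called Rab42 higher in both peritoneal groups, Rab3c lower in B1, and Rab4a and Rab27b lower in B2B1 against B2. Rab42 was at 0 to 0.170 TPM in B2, 0.532 to 1.001 TPM in B2B1 and 0.363 to 0.543 TPM in B1. At such levels a fold change on the log2(TPM + 1) scale understates the ratio, and the depth behind these values is unknown.

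**Figure D4:**
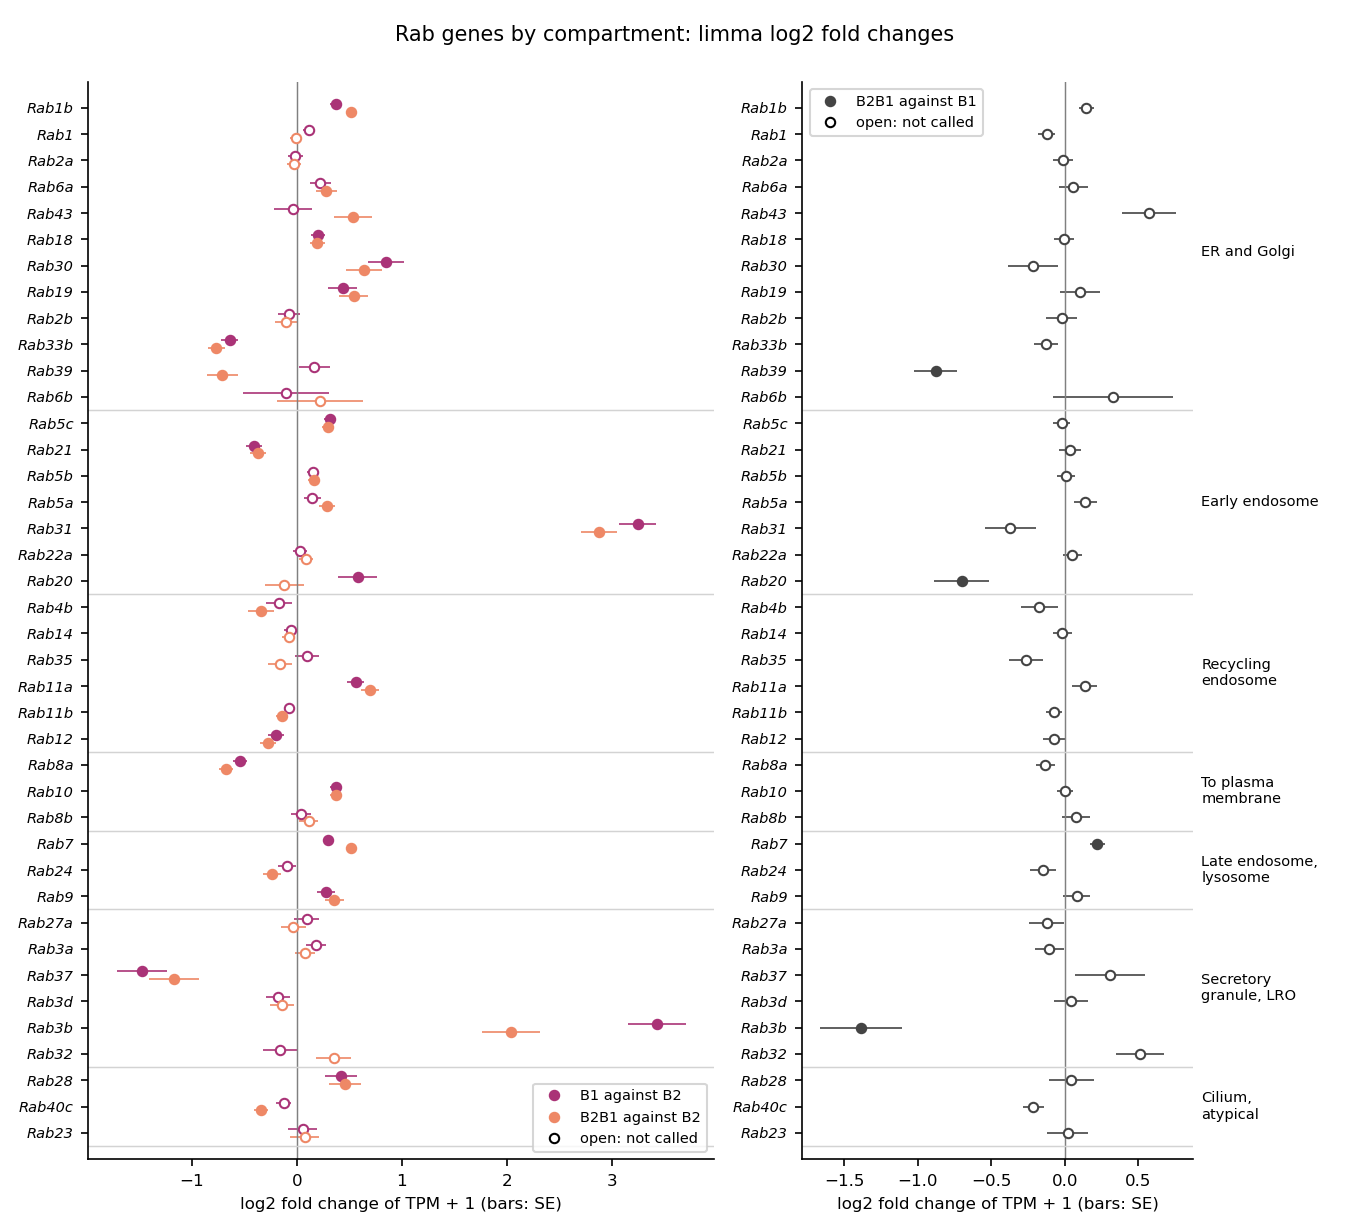
Points are limma log2 fold changes of TPM + 1 with SE bars for the 40 tested Rab genes, grouped by compartment. The left panel shows both peritoneal groups against B2 and the right panel B2B1 against B1, with filled points for called genes, open points for the others, and LRO for lysosome-related organelle. In the right panel Rab7 is the only filled point above 0, and Rab39, Rab20 and Rab3b are the filled points below it.

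Between the 2 peritoneal groups, which share tissue and strain, 10% of the tested Rab genes were called, beside 19.0% of all genes. The 4 called genes were Rab7, higher in B2B1, and Rab3b, Rab20 and Rab39, lower in B2B1. The median log2 fold change over the 40 genes was -0.01, and that of all genes -0.06, with a median absolute value of 0.12 against 0.18. Median-of-ratios scaling gave 4 higher and 3 lower, beside 1087 higher and 894 lower of all 11099 genes. The shares called were then alike, at 17.5% of the Rab genes and 17.85% of all genes. Only the calls of Rab39 and Rab3b held under every alternative that could be run.

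Genes that load, switch off, read and lipidate Rab proteins were taken from 4 lists drawn up from general knowledge, with 127 genes, of which 122 are in the table and 98 were tested. Against B2, 29 of these were higher and 33 lower in B1, and 23 were higher and 41 lower in B2B1, beside the 51.9% and 63.0% of all genes called. Median-of-ratios scaling turned these into 35 higher and 23 lower, and 41 higher and 27 lower. On that scale 2843 of all 11099 genes were higher and 2464 lower in B1, and 3494 and 3031 in B2B1. Between B2B1 and B1, 7 regulators were higher and 19 lower in B2B1, beside 19.0% of all genes called. Median-of-ratios scaling gave 11 higher and 14 lower there, beside 1087 higher and 894 lower of all genes. None of the 57 Rab genes belongs to the signature of 28 genes that the submitters deposited, but 2 regulators, Dennd3 and Tbc1d9, do, and since the study chose that signature on these samples their direction is not independent evidence.

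Among the 27 tested GEF genes 4 were higher and 13 lower in B1 than in B2, where 18.0% of all genes were higher and 33.9% lower, and 4 were higher and 16 lower in B2B1, where 21.0% and 42.0% of all genes were. Median-of-ratios scaling gave 7 higher and 7 lower in B1, and 8 higher and 11 lower in B2B1. Rin3, a GEF for Rab5 and Rab31, was at 56.5, 50.9 and 53.5 TPM in B2, 182, 182 and 168 TPM in B2B1 and 167, 168 and 173 TPM in B1. The peritoneal groups lay together, well above B2, as for Rab31. In limma its log2 fold change was 1.64 ± 0.06 in B1 (limma, adjusted p = 1.12e-07) and 1.71 ± 0.06 in B2B1 (limma, adjusted p = 7.78e-08). Sbf2 (Mtmr13), a GEF for Rab21, was at 2.97, 3.88 and 3.11 TPM in B2, 20.9, 23.9 and 18.6 TPM in B2B1 and 38.8, 32.3 and 34.1 TPM in B1, so that it was higher where Rab21 was lower. Its log2 fold change was 3.06 ± 0.12 in B1 (limma, adjusted p = 1.9e-07) and -0.71 ± 0.12 for B2B1 against B1 (limma, adjusted p = 0.00516). Rab3ip, the Rab8 GEF Rabin8, fell with Rab8a: it was at 19.0, 17.5 and 19.1 TPM in B2, 3.18, 4.65 and 4.06 TPM in B2B1 and 7.91, 8.12 and 8.25 TPM in B1. The log2 fold change was -1.10 ± 0.11 in B1 (limma, adjusted p = 6.12e-05) and -1.99 ± 0.11 in B2B1 (limma, adjusted p = 1.38e-06). Dennd3, the GEF of Rab12, had the largest difference of the list, with 83.2, 77.0 and 82.0 TPM in B2, 0.336, 0.484 and 0.462 TPM in B2B1 and 11.3, 3.57 and 10.3 TPM in B1. The 3 groups did not overlap, and the log2 fold change of B2B1 against B1 was -2.59 ± 0.32 (limma, adjusted p = 0.000951).

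Among the 30 GAP genes 11 were higher and 8 lower in B1 than in B2, 8 were higher and 8 lower in B2B1, and between B2B1 and B1 0 were higher and 4 lower. The shares called were 63.3%, 53.3% and 13.3%, beside 51.9%, 63.0% and 19.0% of all genes. Of all genes 18.0% were higher and 33.9% lower in B1, 21.0% and 42.0% in B2B1, and 6.93% and 12.1% between them. With median-of-ratios scaling the GAP counts were 12 and 5, 12 and 5, and 0 and 2. Tbc1d9 had means of 8.77 ± 1.24, 45.9 ± 11.2 and 72.8 ± 6.36 TPM (SD, n = 3) in B2, B2B1 and B1, and Evi5 means of 5.65 ± 0.279, 23.5 ± 3.39 and 28.9 ± 5.26 TPM, so both were higher in each peritoneal group. Their log2 fold changes in B1 were 2.92 ± 0.17 and 2.155 ± 0.15 (limma, adjusted p = 1.95e-06 and 4.57e-06). Tbc1d9 was also lower in B2B1 than in B1 (-0.68 ± 0.17, limma, adjusted p = 0.0261), a call lost without library 2 (-0.65) or 3 (-0.64) of B1. Tbc1d1, a GAP known from glucose transporter vesicles, was lower, with means of 40.9 ± 1.45, 17.1 ± 3.42 and 15.6 ± 2.11 TPM. Its relative Tbc1d4 was at most 0.0186 TPM in B2 and between 0.888 and 3.13 TPM in the peritoneal libraries.

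**Figure D5:**
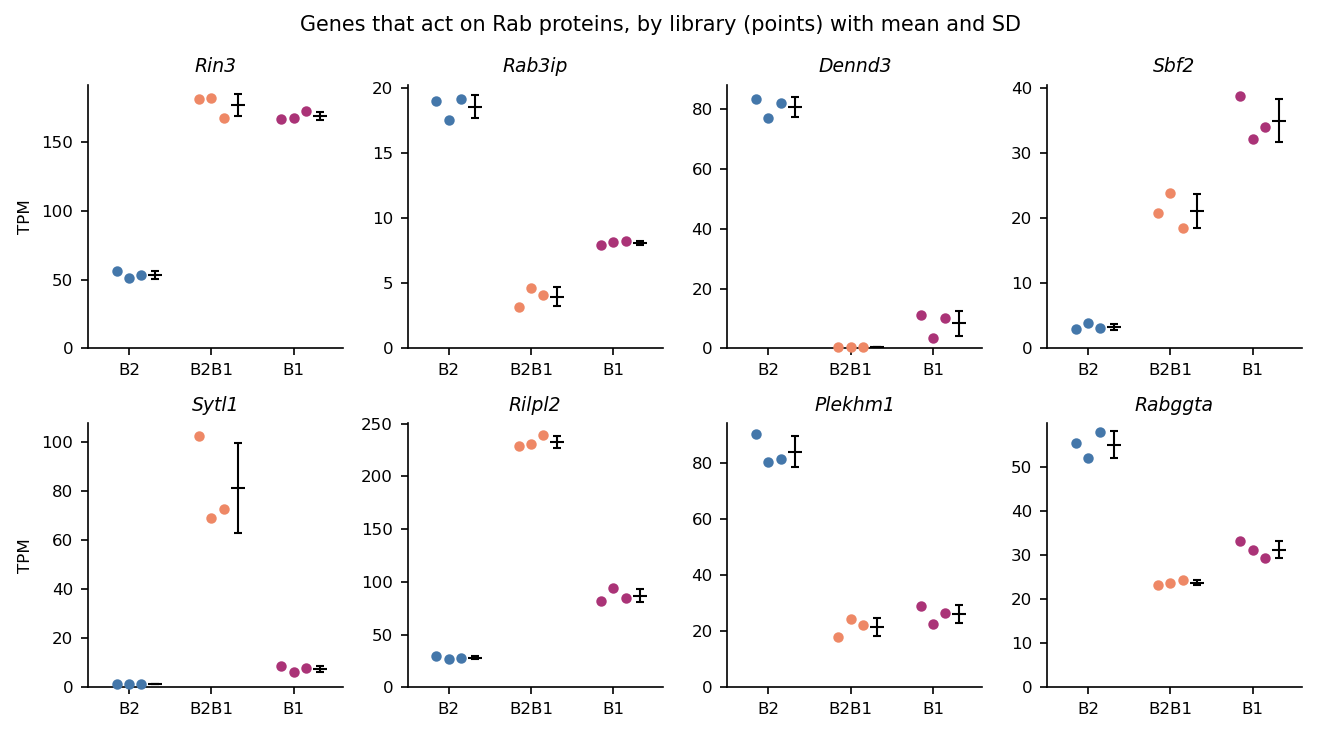
Each panel shows 1 gene of the GEF, effector or lipidation lists, with the TPM of each library as a point, the group mean with SD bars beside the points, and each vertical axis from 0. Rin3 and Sbf2 are higher in both peritoneal groups, Rab3ip, Dennd3, Plekhm1 and Rabggta are lower, and Sytl1 and Rilpl2 are highest in B2B1.

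Of the 33 effector and tether genes 14 were higher and 9 lower in B1, and 11 were higher and 12 lower in B2B1, than in B2. Between B2B1 and B1, 5 were higher and 5 lower. The shares called were 69.7%, 69.7% and 30.3%, beside 51.9%, 63.0% and 19.0% of all genes. Of all genes 18.0% were higher and 33.9% lower in B1, 21.0% and 42.0% in B2B1, and 6.93% and 12.1% between them. With median-of-ratios scaling 15 effector genes were higher and 8 lower in B1, 19 and 9 in B2B1, and 7 and 5 between them. Sytl1, an effector of Rab27 in granule docking, was at 1.44, 1.37 and 1.41 TPM in B2, 102, 68.9 and 72.9 TPM in B2B1 and 8.63, 6.37 and 7.74 TPM in B1. B2B1 stood far above both other groups while Rab27a was not called. The estimated log2 change was 3.25 ± 0.16 for B2B1 against B1 (limma, adjusted p = 9.42e-06) and 1.82 ± 0.16 for B1 against B2 (limma, adjusted p = 1.88e-05). Rilpl2, which binds phosphorylated Rab8 and Rab10, was at 29.5, 27.2 and 27.8 TPM in B2, 229, 230 and 239 TPM in B2B1 and 82.2, 94.0 and 85.0 TPM in B1, in 3 separate steps with a log2 fold change of 1.41 ± 0.06 for B2B1 against B1 (limma, adjusted p = 7.52e-06). Plin3, a lipid droplet protein that binds Rab9, had means of 21.1 ± 1.43, 124 ± 3.10 and 96.0 ± 12.2 TPM. Plekhm1, the Rab7 effector that links late endosomes to the fusion machinery of lysosomes, fell where Rab7 rose, with 90.5, 80.3 and 81.3 TPM in B2, 17.9, 24.3 and 22.2 TPM in B2B1 and 29.1, 22.7 and 26.5 TPM in B1. Its log2 fold change was -1.66 ± 0.12 in B1 (limma, adjusted p = 8.42e-06) and -1.93 ± 0.12 in B2B1 (limma, adjusted p = 2.6e-06).

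Of the 8 genes for lipidation and membrane extraction, 0 were higher and 3 lower in B1, and 0 were higher and 5 lower in B2B1, than in B2, beside 33.9% and 42.0% of all genes lower. Median-of-ratios scaling gave 1 higher and 3 lower in B1, and 2 higher and 2 lower in B2B1. Rabggta, the alpha subunit of Rab geranylgeranyl transferase, was at 55.4, 51.9 and 57.9 TPM in B2, 23.2, 23.7 and 24.4 TPM in B2B1 and 33.2, 31.2 and 29.2 TPM in B1. The 3 groups did not overlap. This amounted to a log2 fold change of -0.80 ± 0.07 in B1 (limma, adjusted p = 2.15e-05), -1.18 ± 0.07 in B2B1 (limma, adjusted p = 1.65e-06) and -0.38 ± 0.07 for B2B1 against B1 (limma, adjusted p = 0.00698). Lrrk2, a kinase that phosphorylates several Rab proteins, among them Rab8a and Rab10, is in none of the lists and was chosen after its values were seen. It was at 207, 201 and 199 TPM in B2, 1.97, 5.41 and 10.5 TPM in B2B1 and 2.70, 2.13 and 2.33 TPM in B1, and it belongs to the submitters' signature. Its log2 fold change was -5.91 ± 0.39 in B1 (limma, adjusted p = 3.67e-06) and -5.07 ± 0.39 in B2B1 (limma, adjusted p = 6.72e-06), and 0.84 ± 0.39 for B2B1 against B1 (limma, adjusted p = 0.164).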

How the data were processed

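Per the labels' protocols, the RNeasy micro kit gave the RNA and the TruSeq RNA v2 kit the libraries. The submitters' processing notes name CASAVA 1.8.2, kallisto and the build mm10. Neither the transcript set nor the strand setting is stated in them. The authors deposited TPM per gene symbol, which hold no read depth, so no count test or counting interval was possible. Groups were taken from the labels. No 2 of the 9 libraries were identical (0 of 36 pairs).

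Genes with a mean of at least 1 TPM were tested as log2(TPM + 1) with limma 3.58.1 in R 4.3.3 (lmFit, contrasts.fit, eBayes with trend), in one model of all 9 libraries without covariates. Two-sided p-values were adjusted within a comparison (Benjamini-Hochberg). The same script was tested on simulated data. An exact permutation test of 3 against 3 has a smallest p of 0.1, so none was used. The added 1 shrinks the fold changes of low genes. Figures were drawn with matplotlib 3.10.9.

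The members, compartments and lists were chosen with earlier results of these data known. Values in every library are given for members called with an absolute log2 fold change of at least 1 and a group mean of at least 5 TPM and for the 10 most abundant members. Others shown in every library (Rab11a, Rab20, Rab30, Rab33b, Rab39) and Lrrk2 were chosen after their values were seen. Of each regulator list, up to 4 genes with the smallest adjusted p among those with a large change are named. Coordinates are from GENCODE vM21 on GRCm38, where 56 of 57 members matched. Rab1 was left without coordinates. Alternatives were other pseudocounts, filters, scalings, weights and moderation, a replicate block, fits of only the groups compared and leaving out libraries.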

Additional observations from a re-analysis of the deposited data

Results flagged for a closer look

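For Rab39 and Rab20 the estimates of the 2 peritoneal groups lay on opposite sides of B2, and the direct comparison of B2B1 with B1 was called. For Rab39 the log2 fold change of B2B1 against B1 was -0.88 (limma, adjusted p = 0.00456), with B2B1 called below B2 and B1 not called against B2. For Rab20 it was -0.70 (limma, adjusted p = 0.0322), with B1 called above B2 and B2B1 not called against B2 (-0.12). With median-of-ratios scaling the Rab20 estimate of B2B1 against B2 turned to 0.08, so that both groups then lay above B2, while B2B1 against B1 gave -0.64 (limma, adjusted p = 0.048).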

How the results depend on the processing

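Each of the 20 alternatives was applied to the 87 log2 fold changes of single Rab genes (those called in any comparison or among the most abundant, each in 3 comparisons), and pseudocounts of 0.1 and 0.5 changed no call. Calls against B2 that held under every alternative numbered 12 of 18 for B1 and 15 of 26 for B2B1, and 2 of 4 held for B2B1 against B1. The matching numbers over all genes were not computed, here or for the fits below other than the other scalings. These counts therefore cannot tell whether Rab calls held more or less often than those of other genes. Scaling moved the split between higher and lower: Rab genes called lower in B2B1 than in B2 numbered 10, but 4 after median-of-ratios scaling and 5 after quantile normalization, and regulators higher 23, but 41 and 35, and lower 41, but 27 after median-of-ratios scaling. Over all 11099 genes those higher numbered 2332, but 3494 and 2973, and those lower 4663, but 3031 and 3538. The change of Rab11b in B2B1 against B2 reversed to 0.0801 and 0.0513 under these scalings. Rab genes higher in B2B1 than in B1 numbered 1, but 4 with median-of-ratios scaling, 3 with quantile normalization, 2 with library weights, without a filter or without a trend, and 0 when only the groups compared were fitted, with 0 to 2 when 1 library was left out. Regulators higher in B2B1 than in B1 numbered 7, but 11 with median-of-ratios scaling and 3 when only the groups compared were fitted, with 4 to 6 on leaving out 1 library. Those lower numbered 19, but 9 when only the groups compared were fitted, with 10 to 23 on leaving out 1 library. Leaving out both library 1 of B2B1 and library 2 of B1, chosen after seeing the data, gave 2 higher Rab genes and 4 higher regulators in that comparison. On leaving out 1 library, Rab genes called in B1 against B2 ranged from 9 to 14 higher and 4 to 5 lower, and in B2B1 against B2 from 11 to 17 higher and 7 to 11 lower. The cause of these shifts was not tested. Correlations of deviations from the group mean ran from -0.058 to 0.123 for libraries with the same number. For libraries with different numbers they ran from -0.205 to 0.125. With 3 libraries a group these values cannot tell whether the numbers pair libraries, and the labels do not say what the numbers mark. With the replicate block, 12 Rab genes were higher and 4 lower in B1 against B2, 15 and 9 in B2B1 against B2, and 1 and 3 in B2B1 against B1. A fit of Rab3b with a filter of 5 TPM was not run, since its mean is below it. TPM hold no depth, so the precision of low members such as Rab13 and Rab42 cannot be given.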
